A study of Mus musculus with 6 samples.

Results

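The genes described here are 9 enzymes and transporters that make, move, oxidise and break down the ceramides of the epidermal barrier, out of 31053 genes counted. They were chosen by symbol as a group of known function: Elovl4, Cers3, Pnpla1, Ugcg, Abca12, Alox12b, Aloxe3, Acer1 and Smpd3. All 9 were found, and all 9 had enough UMIs to be tested in each keratinocyte layer. UMIs (molecular tags) count captured RNA molecules, each once.

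The data are single-cell RNA libraries of dorsal skin from female C57BL/6 mice aged 8 to 10 weeks, 2 libraries in each of 3 groups. Sham mice were untreated. IMQ mice had a 5% imiquimod (IMQ) cream, 62.5 mg a day, put on the shaved back for 4 days and were killed 1 day after the last dose. IMQ+SHP099 mice had the same cream and in addition SHP099, which blocks the phosphatase SHP2 at an allosteric site, by gavage at 10 mg/kg each day for 4 days. Each library pooled the skin of several mice, which cannot be told apart within it, so a library is 1 replicate (n = 2 per group). Imiquimod cream is a model of psoriasis-like inflammation, and the changes it gives in 4 days are those of acute inflammation.

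Keratinocytes divide in the basal layer, move up through the spinous layer and end in the granular layer, where lamellar granules release lipids into the spaces below the cornified layer. The barrier ceramides carry very long fatty acids tipped with linoleate. Elovl4 lengthens those fatty acids, Cers3 joins them to a sphingoid base, and Pnpla1 adds the linoleate to give acylceramide. Ugcg adds glucose to ceramide, and Abca12 loads glucosylceramide into lamellar granules. The lipoxygenases Alox12b and Aloxe3 act in sequence on the linoleate, a step needed to attach ceramides to the cornified envelope. Acer1 is an alkaline ceramidase and Smpd3 is neutral sphingomyelinase, so both belong to ceramide turnover. Loss of several of these genes in humans causes ichthyosis.

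The genes lie on 7 chromosomes in the GENCODE vM21 annotation of GRCm38, the build of the deposited counts, and each is protein coding. Elovl4 lies at chr9:83778692-83806277 (minus strand), Cers3 at chr7:66743504-66823691 (plus strand) and Pnpla1 at chr17:28858411-28890309 (plus strand). Ugcg lies at chr4:59189257-59222833 (plus strand) and Abca12 at chr1:71242276-71414910 (minus strand). Aloxe3, at chr11:69125896-69149115, and Alox12b, at chr11:69156989-69169792, are neighbours on the plus strand with 7873 bases between them. Acer1 lies at chr17:56953490-56982126 (minus strand) and Smpd3 at chr8:106252548-106337988 (minus strand). Gm26786 overlaps Smpd3 on the same strand, so reads in the overlap may not have been counted for Smpd3, and values of Smpd3 are uncertain to that extent. Pnpla1, Acer1 and Smpd3 also have annotated genes on the opposite strand, and whether counting used strand was not given in the sources used here.

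RefSeq promoter windows of GRCm38.p6, from 250 bases before to 50 bases after the RefSeq gene start, were at hand for 7 of the 9 genes. RefSeq starts can differ from the GENCODE ones above. The window of Ugcg begins past its GENCODE start and lies inside the gene, and the RefSeq start of Alox12b also lies inside its gene. All windows were searched on both strands for 3 motifs of factors that act in the epidermis. The motifs were the AP-1 motif TGANTCA, the Grainyhead-like motif AACNNGTT and the CACCC box bound by KLF factors. The windows of Acer1, Ugcg and Alox12b are shown because these 3 genes passed the test between IMQ and Sham in the spinous-like or granular-like layer. They are the windows at chr17:56982077-56982376 (minus strand), chr4:59189300-59189599 (plus strand) and chr11:69156822-69157121 (plus strand), written 5′ to 3′ with CACCC boxes of either strand in capitals.
Acer1: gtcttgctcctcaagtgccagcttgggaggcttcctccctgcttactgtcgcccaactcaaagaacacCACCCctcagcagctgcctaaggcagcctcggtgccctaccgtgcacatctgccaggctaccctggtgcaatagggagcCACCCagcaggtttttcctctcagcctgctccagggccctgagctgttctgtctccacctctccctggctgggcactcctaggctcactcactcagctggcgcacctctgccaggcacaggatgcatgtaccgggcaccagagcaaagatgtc
Ugcg: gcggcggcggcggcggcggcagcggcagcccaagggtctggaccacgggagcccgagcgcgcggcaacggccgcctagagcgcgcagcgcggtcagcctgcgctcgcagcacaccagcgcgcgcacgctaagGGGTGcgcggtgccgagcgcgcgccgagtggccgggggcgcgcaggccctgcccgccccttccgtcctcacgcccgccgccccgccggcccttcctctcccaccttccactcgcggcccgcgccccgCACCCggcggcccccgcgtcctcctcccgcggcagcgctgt
Alox12b: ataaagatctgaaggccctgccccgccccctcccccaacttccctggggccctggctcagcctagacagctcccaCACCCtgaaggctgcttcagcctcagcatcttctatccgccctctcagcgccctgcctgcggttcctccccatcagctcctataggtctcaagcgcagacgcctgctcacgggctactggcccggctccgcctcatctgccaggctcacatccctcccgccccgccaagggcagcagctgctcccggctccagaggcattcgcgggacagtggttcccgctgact
A CACCC box was found in 5 of the 7 windows, while 57.7% of 32544 promoter windows of the same length hold it. Neither the AP-1 motif (7.79% of windows) nor the Grainyhead-like motif (4.19% of windows) was found in the 7 windows. No motif overlapped another. A match of letters is a description of the window, not a binding site.

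Keratinocytes were picked cell by cell from marker genes, none of which is among the 9. Cells with more UMIs of Krt5, Krt14, Krt15 and Col17a1 than of Krt1, Krt10, Krtdap and Sbsn were taken as basal-like. The others were granular-like when genes such as Lor, Flg and Ivl held at least 0.1% of their UMIs, and otherwise spinous-like. Without Lor and Flg among these genes, 415 and 52 cells were granular-like in Sham (424 and 55 with them). The counts were 82 and 39 in IMQ (83 and 40 with them) and 223 and 42 in IMQ+SHP099 (232 and 44 with them). The 6 libraries gave 381 to 5740 keratinocytes each, of which 40 to 424 were granular-like. Sham 1 and IMQ+SHP099 1 held far more keratinocytes (5740 and 5322) than the other libraries (381 to 1259). Basal-like cells held a median of 8878 and 13416.5 UMIs in the Sham libraries and 25836 to 36814 in the treated ones. Of 54847 distinct barcodes, 345 stood in more than 1 library. UMIs were summed per library and layer, and the sums held 841756 to 123870733 UMIs.

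Marker levels within a layer differed between Sham and treated libraries, and this touches every comparison with Sham. In basal-like cells, Krtdap, which marks cells leaving the basal layer, held 227 and 336 CPM (UMIs scaled to a common total) in Sham and 3152 to 3571 in the 4 treated libraries. Krt15, a marker of resting basal cells, held 4097 and 5191 in Sham and 58.5 to 239 in the treated libraries. In granular-like cells, Lor held 1438 and 3810 CPM in Sham and 1.43 to 59.4 in the treated libraries, and Flg2 was at 0 in both IMQ libraries and in IMQ+SHP099 1. The 4 basal markers together held 3082 and 4005 CPM in spinous-like cells of Sham and 10421 to 13338 in those of treated skin, where Krt14 was higher in all 4 treated libraries and the other 3 markers (Krt5, Krt15 and Col17a1) were lower. In granular-like cells the same sum was 233 and 1594 in Sham and 9159 to 13077 in treated skin. The 4 differentiation markers together held 1521 and 2209 in basal-like cells of Sham and 4537 to 5830 in treated ones, with 2 of the 4 higher and 1 (Krt10) lower in all treated libraries.

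Markers of other epithelial cells moved with treatment too. The upper hair follicle list (Krt79, Krt17, Lrig1 and Sox9) summed to 991 and 1724 CPM in basal-like cells of Sham and 4962 to 5672 in treated ones, to 1071 and 1280 against 7018 to 13331 in spinous-like cells, and to 788 and 1261 against 4481 to 16884 in granular-like cells. Of its 4 genes, 1, 3 and 3 were higher in all treated libraries in the 3 layers. The injury keratins Krt6a, Krt6b and Krt16, all 3 higher in every treated library, summed to 232 to 1299 in the Sham layers and 10992 to 28414 in the treated ones. The 6 sebocyte markers summed to 0.552 to 3.19 in the Sham layers and 5.40 to 52.97 in the treated ones, with Mc5r at 0 in all spinous-like and granular-like sums. The part of these markers in the results below was not tested, and the comparison of IMQ with Sham is also given in cells with few markers of the neighbouring layer.

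Levels of the 9 genes were graded from the basal-like to the granular-like layer in every library. Of 54 profiles (9 genes in 6 libraries), all 54 had their highest level in granular-like cells, and 53 were ordered from basal-like through spinous-like to granular-like. The exception was Smpd3 in Sham 2, with 0 UMIs in spinous-like cells, where 3 UMIs would be 0.298 CPM. The gradient is a description, since layers were gated within the same cells. Across the 18 sums of library and layer, each gene followed the mean of the other 8, with Pearson's r from 0.715 for Smpd3 to 0.980 for Cers3. These sums share libraries and layers, and no p is given.

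The genes whose profile was most like the mean of the 9 over the same 18 sums were Spink5 (r = 0.984), an inhibitor of epidermal proteases, and Dsc1 (r = 0.977), a desmosomal cadherin of upper layers. Dgat2, Macc1, Wfdc5, Sc5d, Stard4, Pdzk1ip1, Mpzl3 and Slurp1 followed, with r from 0.968 to 0.973. Dgat2 makes triglycerides, and Sc5d and Stard4 act in cholesterol synthesis and transport. Lor, Flg and the other gate genes were not among these 10.

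**Figure D1:**
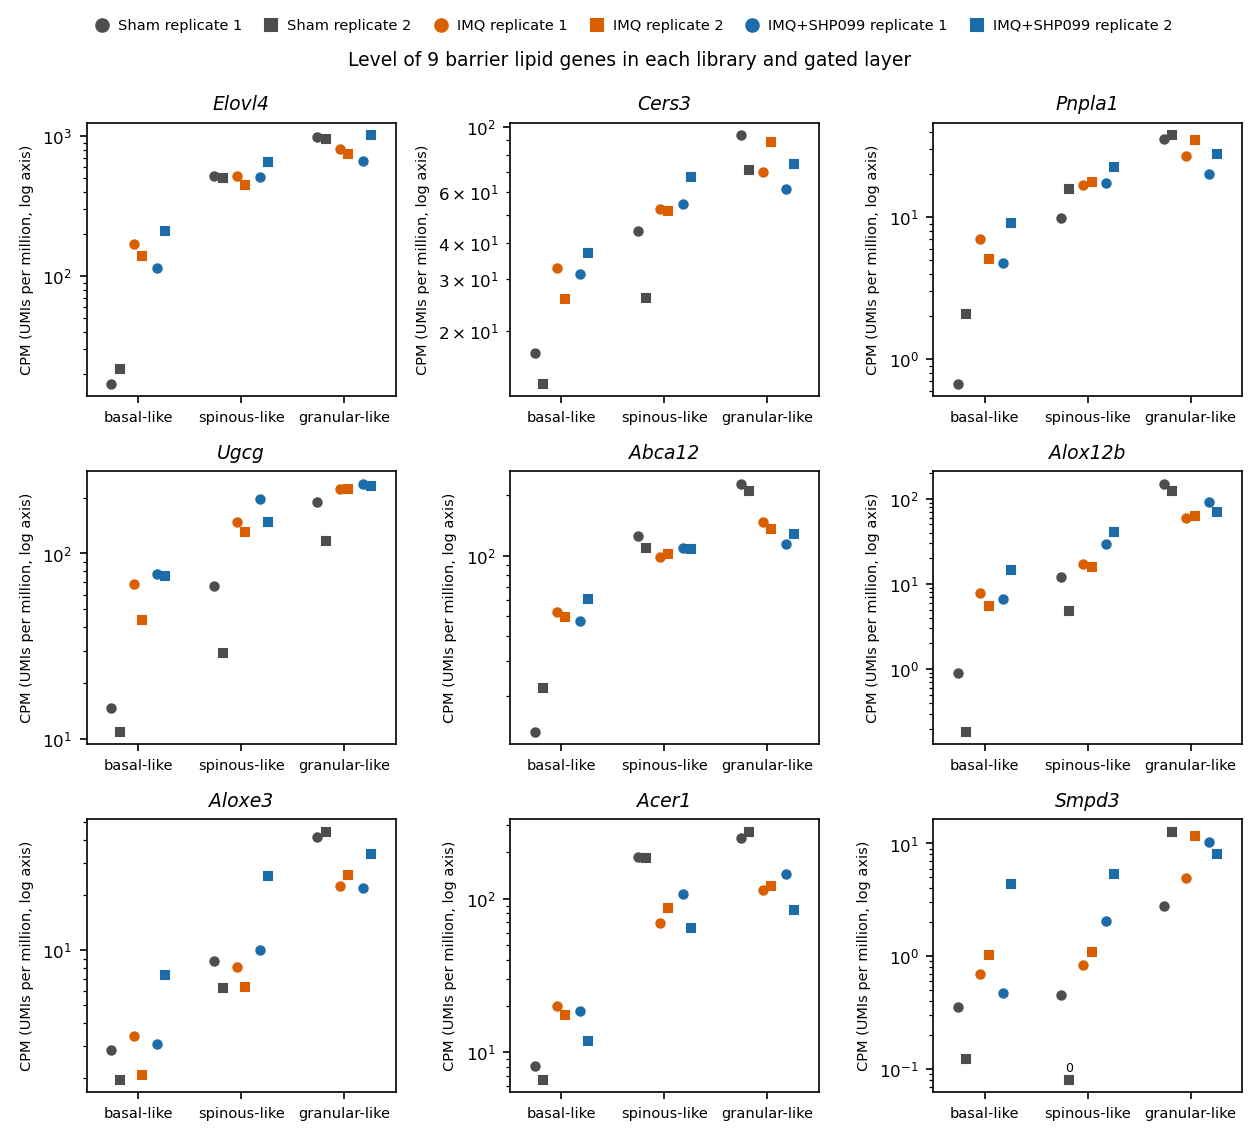
Level of each of the 9 genes (CPM after TMM scaling, log axis) in basal-like, spinous-like and granular-like sums of each library, with circles for replicate 1 and squares for replicate 2. All 54 profiles peak in granular-like cells, and the value of Smpd3 in Sham 2 spinous-like cells is 0, marked as such at the bottom of its panel.

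IMQ was set against Sham to ask what the cream changed. In basal-like cells 7 of the 9 genes were higher in IMQ and none was lower (1 was higher with the gate first planned, given below). In spinous-like cells Ugcg was higher and Acer1 lower, and in granular-like cells Acer1 and Alox12b were lower. Over all genes tested, 11.1% were called higher and 13.5% lower in basal-like cells, 9.9% higher and 10.2% lower in spinous-like cells, and 7.5% higher and 7.56% lower in granular-like cells. The median log2 fold change of the 9 genes was 1.65 in basal-like cells, 0.44 in spinous-like cells and -0.32 in granular-like cells, beside -0.08, -0.04 and -0.01 over all genes tested. Levels below are CPM after TMM scaling, log2 fold changes are given with their standard error (SE), and adjusted p-values are from edgeR's quasi-likelihood test with Benjamini-Hochberg adjustment over all genes of the layer, called when under 0.05.

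Elovl4, the elongase of very long fatty acids, was called in basal-like cells and in no other layer. In basal-like cells it stood at 17.1 and 21.7 CPM in the Sham libraries, at 169 and 138 in the IMQ libraries and at 114 and 210.4 in the IMQ+SHP099 libraries. All 4 treated libraries lay far above both Sham libraries. The rise in IMQ was 7.94-fold (log2 fold change 2.99 ± 0.36 SE, 95% interval 2.18 to 3.80, adjusted p = 0.000551). In spinous-like cells it stood at 524 and 503 in Sham, against 521 and 445 in IMQ, with 515 and 659 in IMQ+SHP099, so the groups overlapped (log2 fold change -0.09 ± 0.29, adjusted p = 0.865). In granular-like cells it stood at 989 and 953 in Sham, against 809 and 746 in IMQ, with 666 and 1014 in IMQ+SHP099. The difference of IMQ there did not pass the test (log2 fold change -0.32 ± 0.35, adjusted p = 0.604).

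Cers3, the ceramide synthase for very long acyl chains, changed less. Basal-like cells held 16.7 and 13.2 CPM in Sham, against 32.9 and 25.7 in IMQ, with 31.2 and 37.1 in IMQ+SHP099. Sham overlapped with neither treated group. The rise in IMQ was 1.96-fold (log2 fold change 0.97 ± 0.25 SE, adjusted p = 0.0232). It stood at 43.9 and 25.9 in Sham and 52.2 and 51.6 in IMQ in spinous-like cells, and at 93.8 and 71.3 in Sham and 70.4 and 89.0 in IMQ in granular-like cells. Neither difference passed the test (adjusted p = 0.193 and 0.926). The basal-like call was lost without Sham 2 (adjusted p = 0.0662), without IMQ 1 (0.262) and without IMQ 2 (0.0722), and when no upper limits on UMIs and genes per barcode were set (0.0641).

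Pnpla1, the transacylase that makes acylceramide, was a low transcript. Basal-like cells held 0.672 and 2.08 CPM in Sham, against 7.01 and 5.04 in IMQ, with 4.79 and 9.08 in IMQ+SHP099. Every treated library lay above both Sham libraries. The rise in IMQ was 4.72-fold (log2 fold change 2.24 ± 0.55 SE, adjusted p = 0.0183), and it was not called without Sham 1 (log2 fold change 1.55, adjusted p = 0.0593). In spinous-like cells the levels were 9.86 and 15.8 in Sham and 16.9 and 17.7 in IMQ, and in granular-like cells 35.7 and 37.7 in Sham and 26.9 and 35.1 in IMQ. The groups stood apart in both layers, but neither difference passed the test (adjusted p = 0.324 and 0.650).

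Ugcg, the glucosylceramide synthase, was the only one of the 9 called higher in 2 layers between IMQ and Sham. In basal-like cells it stood at 14.8 and 10.95 CPM in Sham, against 68.7 and 44.0 in IMQ, with 77.2 and 75.3 in IMQ+SHP099. All treated libraries were above both Sham libraries, and the rise in IMQ was 4.36-fold (log2 fold change 2.12 ± 0.30 SE, 95% interval 1.45 to 2.80, adjusted p = 0.00124). In spinous-like cells it stood at 67.1 and 29.3 in Sham, against 148 and 131 in IMQ, with 197 and 147 in IMQ+SHP099. The groups did not overlap there either, although the Sham libraries differed from each other more than 2-fold. The rise in IMQ was 2.88-fold (log2 fold change 1.53 ± 0.37, adjusted p = 0.0150), and it was not called without Sham 2 (adjusted p = 0.0622) or without IMQ 1 (0.0656). In granular-like cells Ugcg stood at 188 and 116 in Sham and 222 and 222 in IMQ, and the difference did not pass the test (adjusted p = 0.316).

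Abca12, the lamellar granule lipid transporter, was higher in basal-like cells and not called elsewhere. Basal-like cells held 13.2 and 21.8 CPM in Sham, against 52.1 and 49.7 in IMQ, with 47.3 and 60.7 in IMQ+SHP099. The treated libraries lay close together and above Sham, with a rise of 2.92-fold in IMQ (log2 fold change 1.55 ± 0.30 SE, adjusted p = 0.00592). In granular-like cells it stood at 229 and 209 in Sham, against 147 and 136 in IMQ, with 115 and 128 in IMQ+SHP099. All 4 treated libraries lay below both Sham libraries there, but the difference of IMQ did not pass the test (log2 fold change -0.63 ± 0.29, 95% interval -1.27 to 0.01, adjusted p = 0.182). In spinous-like cells it ran from 98.4 to 126 in the 6 libraries.

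Alox12b, the 12R-lipoxygenase, was called higher in the lowest layer and lower in the highest, and both calls depended on the choice of cells. In basal-like cells it stood at 0.890 and 0.184 CPM in Sham (45 and 3 UMIs), against 7.76 and 5.49 in IMQ, with 6.73 and 14.6 in IMQ+SHP099. The treated libraries were well above Sham, and the log2 fold change in IMQ was 3.42 ± 0.60 SE (adjusted p = 0.00379). With the gate first planned, given below, it was 0.00 and not called. In basal-like cells with few differentiation markers, also given below, Alox12b had too few UMIs to be tested (23 and 1 in Sham, 0 and 0 in IMQ). In granular-like cells it stood at 151 and 123 in Sham, against 58.8 and 63.2 in IMQ, with 91.7 and 70.3 in IMQ+SHP099. Both IMQ libraries were the lowest of the 6, and Alox12b was 2.25-fold lower in IMQ than in Sham (log2 fold change -1.17 ± 0.30, 95% interval -1.83 to -0.51, adjusted p = 0.0230). That call was lost without Sham 1 (adjusted p = 0.166), Sham 2 (0.0524), IMQ 1 (0.207) or IMQ 2 (0.150), while the log2 fold change stayed between -1.35 and -1.01. In granular-like cells with few basal UMIs, given below, Alox12b was not called (-0.77, adjusted p = 0.182). With the gate first planned it was still called lower in granular-like cells (-2.27, adjusted p = 0.0332). In spinous-like cells it stood at 12.1 and 4.76 in Sham and 17.2 and 16.0 in IMQ, which did not pass the test (adjusted p = 0.110). It was called higher there with replicate numbers as a block (log2 fold change 0.9986, adjusted p = 0.0377), with no filter on low counts (0.91, adjusted p = 0.0267) and without Sham 1 (1.81, adjusted p = 0.0114).

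Aloxe3, the lipoxygenase that takes over the product of Alox12b, was not called in any layer with the main gate. In granular-like cells it stood at 41.5 and 44.5 CPM in Sham, against 22.4 and 25.8 in IMQ, with 21.96 and 33.4 in IMQ+SHP099. Both Sham libraries lay above the 4 treated ones, with a log2 fold change of -0.84 ± 0.32 SE in IMQ (adjusted p = 0.104). With a stricter keratinocyte gate it was called lower there (-1.06, adjusted p = 0.0419). Its basal-like levels ran from 1.96 to 3.42 over the Sham and IMQ libraries, which overlapped (log2 fold change 0.19 ± 0.48, adjusted p = 0.808). In spinous-like cells the Sham and IMQ libraries overlapped as well, between 6.25 and 8.71 (adjusted p = 0.953).

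Acer1, the alkaline ceramidase of the differentiated epidermis, was lower in IMQ in both upper layers and higher in the basal-like layer. In spinous-like cells it stood at 187 and 183 CPM in Sham, against 69.6 and 86.2 in IMQ, with 107 and 64.0 in IMQ+SHP099. The Sham libraries were almost equal, and all 4 treated libraries were far below them. Acer1 was 2.38-fold lower in IMQ (log2 fold change -1.25 ± 0.30 SE, 95% interval -1.91 to -0.59, adjusted p = 0.0136). In granular-like cells it stood at 247 and 273 in Sham, against 114 and 121 in IMQ, with 144 and 84.1 in IMQ+SHP099, again with every treated library below Sham. It was 2.21-fold lower in IMQ there (log2 fold change -1.14 ± 0.33, adjusted p = 0.0408). In basal-like cells it stood at 8.11 and 6.55 in Sham, against 19.9 and 17.3 in IMQ, with 18.4 and 11.7 in IMQ+SHP099, a rise of 2.53-fold in IMQ (log2 fold change 1.34 ± 0.29, adjusted p = 0.0106). These basal-like levels were far below those of the upper layers.

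The calls of Acer1 depended on single libraries more than its values did. The spinous-like call was lost without Sham 1 (adjusted p = 0.0505), IMQ 1 (0.185) or IMQ 2 (0.0817), with a log2 fold change between -1.40 and -1.10 when any 1 library was left out. The granular-like call was lost without Sham 1 (adjusted p = 0.125), Sham 2 (0.138), IMQ 1 (0.260) or IMQ 2 (0.211), with a log2 fold change between -1.22 and -1.11. It was also lost with a stricter keratinocyte gate (log2 fold change -0.99, adjusted p = 0.0716) and with a granular cut of 0.2% (-0.84, adjusted p = 0.127). The basal-like call was lost without IMQ 1 (log2 fold change 1.24). It was also lost with the gate first planned, given below (0.58, adjusted p = 0.213). In basal-like cells with few differentiation markers, given below, the value was -3.33 and not called (adjusted p = 0.115).

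Smpd3, neutral sphingomyelinase, was too rare in keratinocytes for a firm comparison. It gave 0.122 to 1.02 CPM in basal-like cells of the Sham and IMQ libraries, and 2.78 and 12.7 in Sham and 4.97 and 11.7 in IMQ in granular-like cells. The granular-like values of Sham alone differed more than 4-fold. No difference between IMQ and Sham passed the test in basal-like, spinous-like or granular-like cells (adjusted p = 0.268, 0.266 and 0.890). In gated fibroblasts of the same libraries Smpd3 held 12.1 to 194 CPM of unscaled totals, above each keratinocyte level of the same library in all 6 libraries. The keratinocyte sums held 51.7 to 397 CPM of 5 fibroblast markers together, and the part of fibroblast RNA in the values of Smpd3 was not tested.

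**Figure D2:**
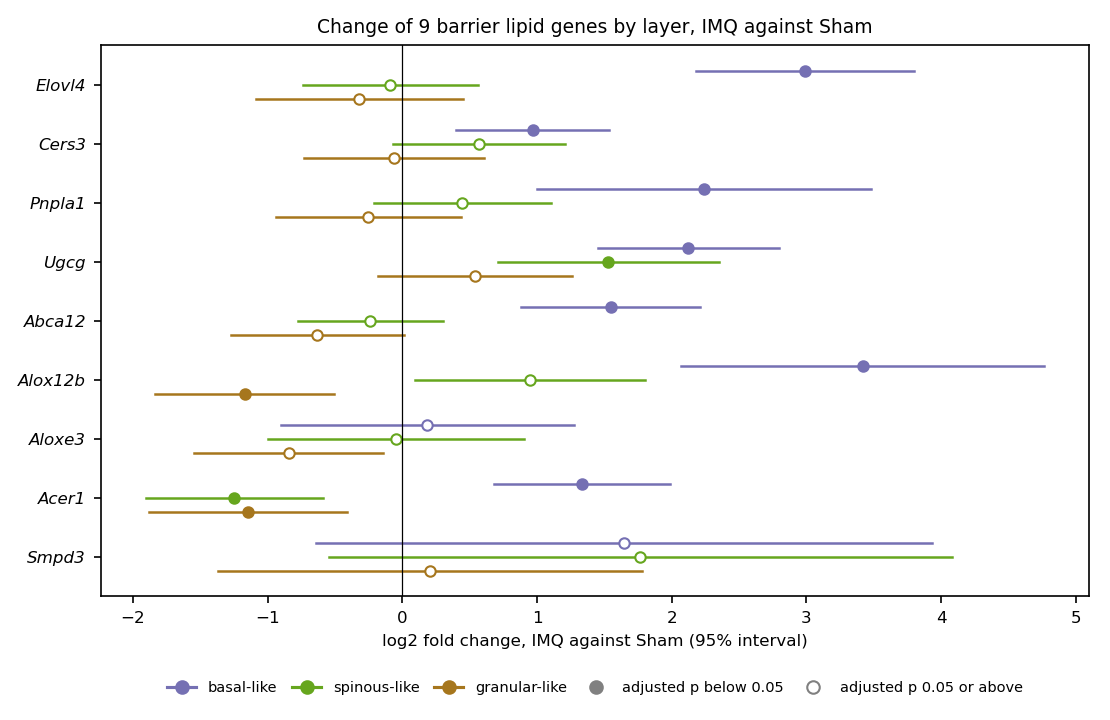
Log2 fold change of IMQ against Sham for each gene in the 3 layers, with 95% intervals, filled where the adjusted p is under 0.05. All 9 basal-like points lie to the right of 0, and those of 7 genes are filled. The filled points to the left of 0 are Acer1 in spinous-like and granular-like cells (-1.25 and -1.14) and Alox12b in granular-like cells (-1.17).

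These calls depended on the gate and on the scaling. The gate as first planned also excluded cells by S100a8, a gene that treated keratinocytes express. S100a8 was dropped from it after marker levels were seen. The planned gate left out 248 to 3517 keratinocytes of each treated library and none of Sham. With it, only Elovl4 was called in basal-like cells (log2 fold change 1.72, adjusted p = 0.00601), and the values of Alox12b, Cers3 and Ugcg there were 0.00, -0.08 and 0.38. In the upper layers Acer1 in spinous-like cells (-1.21, adjusted p = 0.0170) and Alox12b in granular-like cells (-2.27, adjusted p = 0.0332) were still called, and Ugcg in spinous-like cells (0.90, adjusted p = 0.211) and Acer1 in granular-like cells (-1.24, adjusted p = 0.0585) were not. With library totals in place of TMM scaling the median of all genes moved from -0.08 to -0.31 in basal-like cells, and Abca12 (1.2501, adjusted p = 0.0519), Cers3 (0.75, adjusted p = 0.0999) and Pnpla1 (1.89, adjusted p = 0.0814) were no longer called there.

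The difference of the change between layers was tested as an interaction of layer and group over the 18 sums. It was tested only with the gate that leaves S100a8 out, and in all cells of each layer. The change in IMQ was lower in spinous-like than in basal-like cells for 5 genes, Elovl4, Pnpla1, Abca12, Alox12b and Acer1 (9.75% of all genes tested were called, in either direction). It was lower in granular-like than in basal-like cells for all but Smpd3, with differences from -4.77 ± 0.50 SE for Alox12b to -1.13 ± 0.36 for Aloxe3 (19.5% of genes called). Between granular-like and spinous-like cells, Alox12b (-2.28 ± 0.44, adjusted p = 0.00972) and Ugcg (-1.12 ± 0.25, adjusted p = 0.0270) differed (2.95% of genes called). For Acer1 the difference between the upper layers was 0.04 ± 0.20 (adjusted p = 0.976).

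The rise in basal-like cells was then recomputed in basal-like cells with few differentiation markers, in which Krt1, Krt10, Krtdap and Sbsn together held under 5% of the UMIs of both marker lists. This choice was made after the data were seen. It kept 3046 and 579 cells in Sham, against 131 and 86 in IMQ, with 1457 and 35 in IMQ+SHP099. None of the 7 genes that could be tested was called between IMQ and Sham, where 5.59% of all genes were called higher and 7.02% lower, and 3 of the 7 (Ugcg higher, Aloxe3 and Acer1 lower) had an unadjusted p under 0.05. Elovl4 stood at 5.599 and 7.53 CPM in Sham, against 4.31 and 4.88 in IMQ, with 4.81 and 0 in IMQ+SHP099. The contrast of Elovl4 seen in all basal-like cells was not seen in these cells, where all 4 treated libraries lay below Sham (log2 fold change -0.52 ± 0.60 SE, adjusted p = 0.639). Abca12 stood at 8.86 and 15.9 in Sham and 13.2 and 11.2 in IMQ, and the difference was 0.01 ± 0.37 (adjusted p = 0.9947). Acer1 gave 70 and 15 UMIs in Sham and 1 and 0 in IMQ in these cells. Alox12b and Smpd3 had too few UMIs to be tested.

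Ugcg was the gene whose treated libraries all stayed above Sham in these basal-like cells. It stood at 15.5 and 10.6 CPM in Sham, against 28.0 and 17.1 in IMQ, with 46.4 and 38.3 in IMQ+SHP099. The difference was not called in IMQ (log2 fold change 0.80 ± 0.34 SE, adjusted p = 0.149) and was called in IMQ+SHP099 (1.71 ± 0.34, adjusted p = 0.00485), where 6.8% of all genes were called higher and 8.89% lower. The difference between the treated groups was 0.91 ± 0.35 (adjusted p = 0.554).

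**Figure D3:**
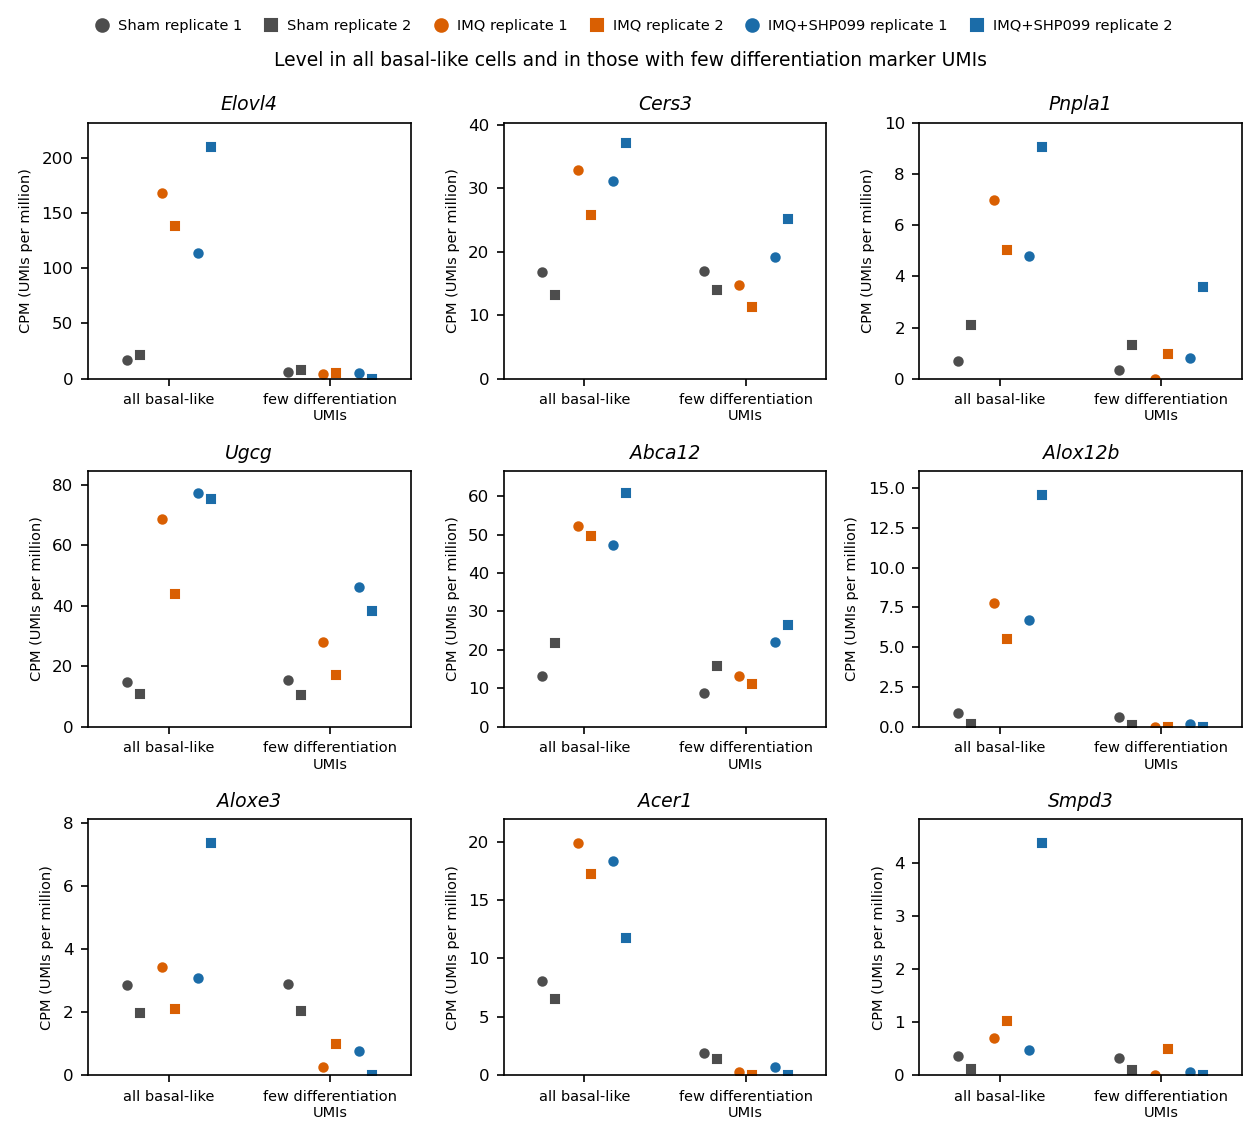
Level of the 9 genes in all basal-like cells and in basal-like cells with few differentiation UMIs, per library (CPM after TMM scaling). The separation of Elovl4 seen in all basal-like cells (17.1 and 21.7 in Sham, 114 to 210.4 in treated libraries) is not seen in the cells with few differentiation UMIs (0 to 7.53 in all 6 libraries).

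In the upper layers the same check kept cells in which the basal markers held under 30% of both lists. In these spinous-like cells Ugcg (log2 fold change 1.68 ± 0.41 SE, adjusted p = 0.0151) and Alox12b (1.62 ± 0.46, adjusted p = 0.0321) were higher and Acer1 (-1.38 ± 0.31, adjusted p = 0.00902) was lower in IMQ than in Sham. Over all genes 8.17% were called higher and 6.66% lower. In granular-like cells with few basal UMIs, which numbered 61 and 21 in IMQ, no gene of the 9 was called (6.09% of all genes higher, 5.69% lower) and 2 had an unadjusted p under 0.05. Acer1 stood at 252 and 275 CPM in Sham, against 126 and 123 in IMQ, with 148 and 91.6 in IMQ+SHP099 there, so its levels kept apart (log2 fold change -1.08 ± 0.34, adjusted p = 0.0602). Alox12b stood at 154 and 124 in Sham and 67.7 and 97.2 in IMQ (-0.77 ± 0.34, adjusted p = 0.182).

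Summed over all gated keratinocytes with no split into layers, the 9 genes gave 2 calls between IMQ and Sham, beside 9.21% of all genes called higher and 11.8% lower. Ugcg stood at 47.0 and 25.5 CPM in Sham and 91.9 and 70.0 in IMQ, and was higher (log2 fold change 1.16 ± 0.32 SE, adjusted p = 0.0340). Acer1 stood at 79.1 and 89.2 in Sham and 34.4 and 36.0 in IMQ, and was lower (-1.26 ± 0.23, adjusted p = 0.00625). Elovl4 did not differ by the test (-0.04 ± 0.36, adjusted p = 0.944), nor did Abca12 (-0.03 ± 0.24, adjusted p = 0.949). This sum weighs the layers by the cells that each library happened to hold.

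The share of cells with a UMI was compared after every cell was thinned to 5000 UMIs, since treated cells were deeper. For Acer1 in spinous-like cells the share was 58.3% and 61.4% in Sham, against 25.2% and 29.4% in IMQ, with 31.7% and 21.95% in IMQ+SHP099. Without thinning it was 76.3% and 89.1%, 76.5% and 82.0%, and 78.5% and 61.1%, so the groups separated only at equal depth. The thinned share of IMQ was 32.5 percentage points below that of Sham (exact two-sided permutation test, p = 0.33, the smallest that 2 libraries against 2 can give). Spinous-like cells under 5000 UMIs were left out, 3 to 114 per library. In fibroblasts the thinned share of Acer1 was at most 0.543%, at median depths of 5380.5 to 9418 UMIs per cell.

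For Ugcg in spinous-like cells the thinned share was 22.5% and 16.5% in Sham, against 39.6% and 36.0% in IMQ, with 50% and 34.1% in IMQ+SHP099, with 34.4% to 56.0% in fibroblasts. Ugcg is expressed in many cell types, so fibroblasts are no background for it, and their share was above that of spinous-like cells in 5 of 6 libraries. For Elovl4 in basal-like cells the thinned share was 6.41% and 9.63% in Sham, against 36.5% and 31.1% in IMQ, with 25.02% and 33.9% in IMQ+SHP099, with at most 2.33% in fibroblasts.

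**Figure D4:**
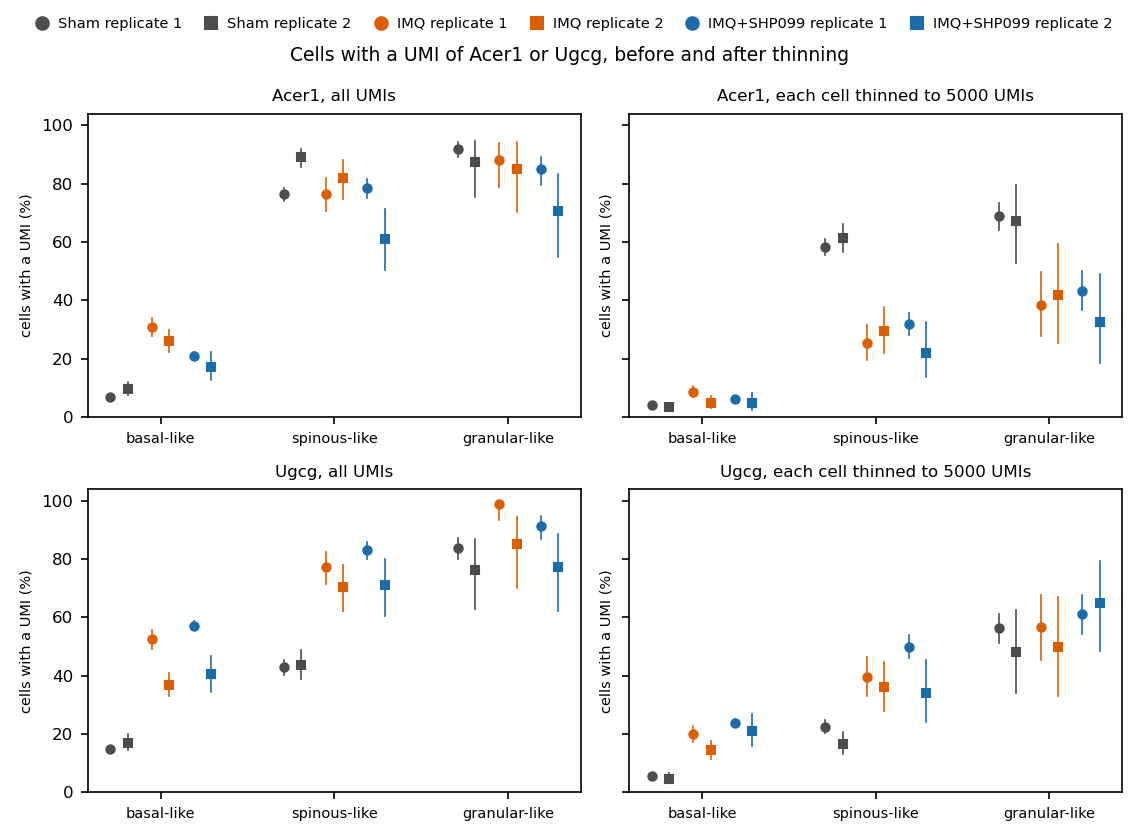
Share of cells with a UMI of Acer1 or Ugcg (percent, exact 95% intervals that cover counting error only) per library and layer, from all UMIs and after thinning each cell to 5000 UMIs. After thinning, the share of Acer1 in spinous-like cells is 58.3% and 61.4% in Sham and 21.95% to 31.7% in the treated libraries.

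IMQ+SHP099 was then set against IMQ, to ask which levels the inhibitor moved on top of the cream. None of the 9 genes was called in any layer. Over all genes, edgeR called 0% higher and 0% lower in basal-like and granular-like cells, and 0.00883% higher and 0% lower in spinous-like cells, which is 1 gene, Ptcra, named after its value was seen. DESeq2 called none of the 9 either. At an unadjusted p under 0.05 there were 2 of the 9 in spinous-like cells and none in the other layers, beside 349, 558 and 175 genes in spinous-like, basal-like and granular-like cells. The differences between layers gave no call among the 9 genes (0.0239% of all genes called for spinous-like against basal-like cells, 0% for the other pairs). In the sum of all gated keratinocytes none was called, with 0% of all genes called higher and 0% lower.

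The intervals show how large a difference these libraries could hide. For Acer1 the log2 fold change of IMQ+SHP099 against IMQ was 0.15 in spinous-like cells (95% interval -0.51 to 0.81) and -0.02 in granular-like cells (-0.76 to 0.71). For Ugcg it was 0.44 in basal-like cells (-0.21 to 1.08) and 0.31 in spinous-like cells (-0.50 to 1.12). For Elovl4 it was 0.07 in basal-like cells (-0.68 to 0.82). Equal levels are therefore not shown.

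The 2 genes with an unadjusted p under 0.05 were the lipoxygenases in spinous-like cells. Alox12b stood at 17.2 and 16.0 CPM in IMQ and 29.4 and 40.5 in IMQ+SHP099, with no overlap (log2 fold change 1.046 ± 0.39 SE, 95% interval 0.19 to 1.91, adjusted p = 1.00). Aloxe3 stood at 8.10 and 6.35 in IMQ, against 10.1 and 25.6 in IMQ+SHP099 (1.18 ± 0.45, 95% interval 0.19 to 2.17, adjusted p = 1.00). In both, IMQ+SHP099 2, the library with the fewest keratinocytes, was the highest. In spinous-like cells with few basal UMIs the difference of Alox12b was 0.14 ± 0.46 and that of Aloxe3 was 1.046 ± 0.52.

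**Figure D5:**
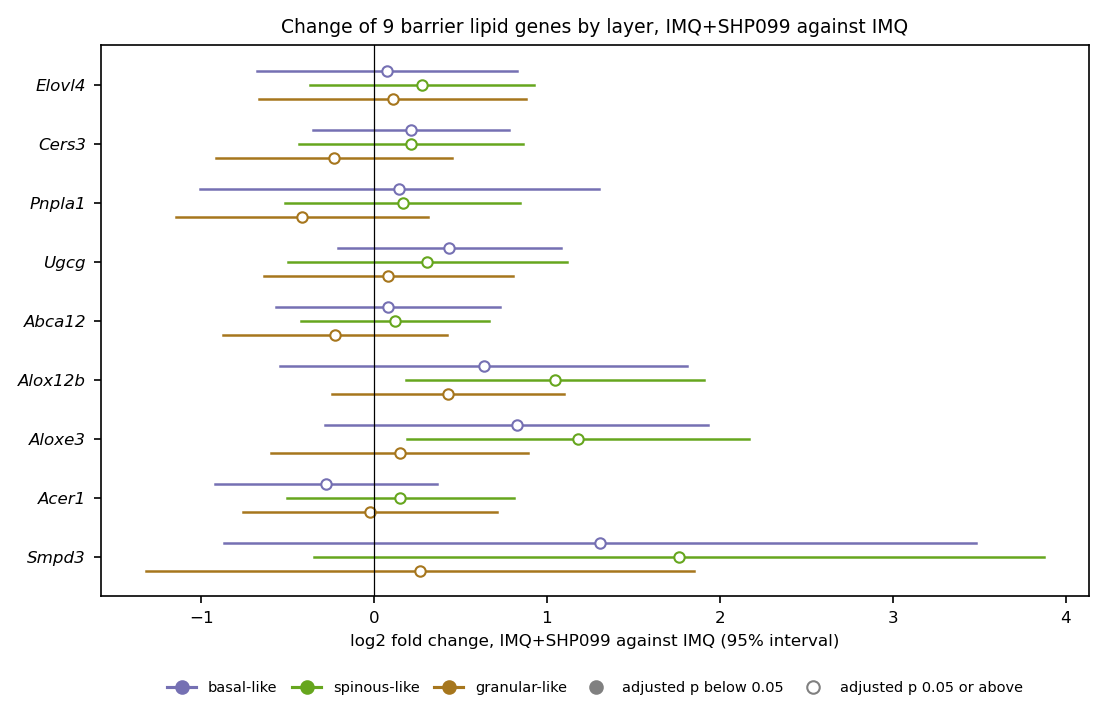
Log2 fold change of IMQ+SHP099 against IMQ for each gene in the 3 layers, with 95% intervals, filled where the adjusted p is under 0.05. No point is filled, and the intervals of Alox12b and Aloxe3 in spinous-like cells are the only ones that do not reach 0.

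The comparison of IMQ+SHP099 with Sham shares its libraries with the other comparisons and is given for its own values. In basal-like cells 7 of the 9 genes were higher, beside 11.8% of all genes higher and 13.8% lower. They were Elovl4 (log2 fold change 3.06 ± 0.36 SE), Alox12b (4.05 ± 0.61), Ugcg (2.56 ± 0.30), Pnpla1 (2.39 ± 0.56), Abca12 (1.63 ± 0.30), Cers3 (1.18 ± 0.26) and Acer1 (1.06 ± 0.29), with adjusted p-values from 0.000599 to 0.0279. The call of Pnpla1 was lost without either IMQ+SHP099 library (adjusted p = 0.0603 and 0.0810), and that of Acer1 without Sham 2 (0.0746) or IMQ+SHP099 1 (0.207). The count of 7 fell to 1 with the S100a8 gate (Elovl4), to 1 in basal-like cells with few differentiation markers (Ugcg) and to 4 with library totals in place of TMM scaling.

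In spinous-like cells Ugcg (1.84 ± 0.38, adjusted p = 0.00632), Alox12b (1.995 ± 0.39, adjusted p = 0.00499) and Smpd3 (3.53 ± 0.98, adjusted p = 0.0282) were higher and Acer1 (-1.10 ± 0.30, adjusted p = 0.0256) was lower than in Sham, beside 9.92% of all genes higher and 9.89% lower. Smpd3 rested on 9 and 0 UMIs in Sham and 28 and 10 in IMQ+SHP099. Its call was lost without Sham 2 (adjusted p = 0.1004) or either IMQ+SHP099 library (0.0747 and 0.115), and that of Ugcg without IMQ+SHP099 1 (0.0573). In granular-like cells Acer1 alone was called, lower (-1.17 ± 0.33, adjusted p = 0.0371), beside 7.48% of all genes higher and 7.24% lower. The spinous-like and granular-like calls of Acer1 stood near the threshold, with adjusted p-values from 0.0145 to 0.0773 and from 0.0214 to 0.123 when a library was left out, and both were kept only without IMQ+SHP099 1. In the sum of all gated keratinocytes Ugcg was higher (1.49 ± 0.33, adjusted p = 0.0130) and Acer1 lower (-1.41 ± 0.23, adjusted p = 0.00420), beside 10.6% of all genes higher and 11.3% lower.

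Other genes of barrier lipid synthesis were followed in 5 lists between IMQ and Sham. The lists were tested only with the gate that leaves S100a8 out, and in all cells of each layer. With S100a8 in the gate, 1 of the 9 genes was called higher in basal-like cells, and 7 without it. In basal-like cells with few differentiation markers, 0 of the 7 that could be tested were called. List counts are read against the shares of all genes called higher and lower. These shares were 11.1% and 13.5% in basal-like cells, 9.9% and 10.2% in spinous-like cells, and 7.5% and 7.56% in granular-like cells. Cholesterol synthesis and uptake was the list with most calls: 12 of 15 genes were higher in IMQ than in Sham in basal-like cells and 11 of 15 in spinous-like cells, with none lower, while in granular-like cells 1 was higher and 1 lower, near the shares over all genes. Mvd, mevalonate diphosphate decarboxylase, rose from 3.39 ± 0.04 to 48.8 ± 2.05 CPM (SD, n = 2) in basal-like cells (log2 fold change 3.84 ± 0.27 SE, adjusted p = 4.14e-05). Idi1, isopentenyl diphosphate isomerase, rose from 108 ± 21.1 to 461 ± 13.1 in spinous-like cells (2.09 ± 0.31, adjusted p = 0.000983). In granular-like cells Nsdhl was higher (1.03 ± 0.30, adjusted p = 0.0432) and Dhcr7 lower (-0.94 ± 0.28, adjusted p = 0.0477). The median log2 fold change of this list was 1.86, 1.23 and 0.26 in the 3 layers from basal-like to granular-like.

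In the list of de novo ceramide synthesis, 5 of 15 genes were higher and 1 lower in basal-like cells, 4 and 3 of 14 in spinous-like cells, and 2 and 3 of 13 in granular-like cells, against 11.1%, 9.9% and 7.5% of all genes higher and 13.5%, 10.2% and 7.56% lower. The 1 lower gene of 15 in basal-like cells is below the share over all genes. Degs1, the desaturase that makes ceramide from dihydroceramide, was higher in each layer, with log2 fold changes of 1.88 ± 0.30 SE, 1.72 ± 0.28 and 1.68 ± 0.33. Cers6, a ceramide synthase for shorter acyl chains, was lower in basal-like (-1.96 ± 0.27) and spinous-like cells (-2.69 ± 0.28). Ormdl3, a brake on serine palmitoyltransferase, was lower in spinous-like (-1.75 ± 0.24) and granular-like cells (-2.36 ± 0.38). Sptlc3, a subunit of that enzyme, was lower in granular-like cells (-1.11 ± 0.31, adjusted p = 0.0357).

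In the list of fatty acid elongation, activation and omega hydroxylation, 6 of 11 genes were higher in basal-like cells, 2 of 10 in spinous-like cells and none of 10 in granular-like cells, where Elovl6 was lower (-1.61 ± 0.29 SE, adjusted p = 0.00350). Over all genes 11.1%, 9.9% and 7.5% were higher in these layers, so the granular-like counts are no result about the list. In the list of glucosylceramide and sphingomyelin processing, 3 of 12 genes were lower in basal-like cells, 1 was higher and 1 lower of 11 in spinous-like cells, and 2 of 10 were lower in granular-like cells, beside 13.5%, 10.2% and 7.56% of all genes lower. Its spinous-like counts are near the shares over all genes, and with lists this short the others are not far above them. Acer3, another alkaline ceramidase, was lower in all 3 layers (log2 fold changes -1.20 ± 0.26, -2.18 ± 0.26 and -2.47 ± 0.38). In all basal-like cells Acer3 was lower and Acer1 higher. The Acer1 difference was not called with the S100a8 gate (log2 fold change 0.58). It was -3.33, also not called, in basal-like cells with few differentiation markers. Acer3 was not followed in those cells.

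In the list of linoleate oxidation and lamellar granule lipid steps, 7 of 10 genes were higher and 1 lower in basal-like cells, 4 and 2 in spinous-like cells, and none higher and 2 lower in granular-like cells. The 1 lower gene in basal-like cells and the absence of higher calls in granular-like cells are near the shares over all genes. Sult2b1, the cholesterol sulfotransferase, was higher in basal-like cells (3.83 ± 0.35 SE, adjusted p = 0.000121) and spinous-like cells (1.48 ± 0.32, adjusted p = 0.00886). Alox12e, the epidermal 12-lipoxygenase of mice, was lower in spinous-like cells, from 179.5 ± 23.6 to 2.16 ± 1.28 CPM (SD, n = 2), and in granular-like cells, from 258 ± 14.4 to 2.34 ± 3.31. Its log2 fold changes were -6.46 ± 0.48 (adjusted p = 1.28e-05) and -7.18 ± 0.74 (adjusted p = 0.000137). In the comparison of IMQ+SHP099 with IMQ, no gene of the 5 lists was called in any layer.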

How the data were processed

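Dorsal skin was dissociated and sequenced with 10x Genomics 3′ chemistry. Per the submitters' processing notes, the authors used Cell Ranger with GRCm38 (mm10); the deposited values are raw UMI counts per gene and barcode, with no normalization, in 6 libraries (53913865 to 188283327 UMIs). The genes and lists described here were chosen with earlier results of these data known.

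Barcodes with under 100000 UMIs, 6500 genes and 10% mitochondrial UMIs were kept. A cell was a keratinocyte when its keratin and differentiation markers held at least 1% of its UMIs and 5 times those of each other class. Of 76 marker genes 75 were found. S100a8 had been listed among myeloid markers and was dropped from the gate after marker levels were seen. No doublet caller was run; the deepest 5% of cells were left out as an alternative. Cells gated on fibroblast markers gave a background.

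UMIs were summed per library and layer and tested with edgeR 4.0.16 (limma 3.58.1, R 4.3.3): TMM scaling, filterByExpr and the quasi-likelihood test on group, all 6 libraries in each fit, with Benjamini-Hochberg adjustment over 13562, 11320 and 8815 genes in basal-like, spinous-like and granular-like cells. The standard error was taken from the fold change and its F statistic. Differences between layers came from 1 fit over 18 sums with library as a term (12564 genes). Libraries are the replicates, pooled animals and 2 per group, so p-values measure the spread between libraries only. All 9 genes were tested in each comparison. All 9 are named for IMQ against Sham, and some of them for the other comparisons. Genes of the 5 lists are named when called, at most 4 per direction by size of change among those with a mean of at least 20 CPM (counts scaled to a common total), and the 10 genes most alike by Pearson's r. The scripts were tested on simulated data. Shares of cells carry exact Clopper-Pearson 95% intervals, and intervals and the floor of 3 UMIs cover counting error only. Alternatives were DESeq2 1.42.0, other gates, filters and scaling, a replicate block and leaving out each library. Python 3.11.15, numpy 2.4.6, pandas 2.3.3, scipy 1.17.1 and matplotlib 3.10.9 were used.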

Additional observations from a re-analysis of the deposited data

Results flagged for a closer look

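The change between IMQ and Sham differed between layers for 8 of the 9 genes, by edgeR's interaction of layer and group with Benjamini-Hochberg adjustment. The interaction was tested only with the gate that leaves S100a8 out, and in all cells of each layer. With S100a8 in the gate, 1 of the 9 genes was called higher in basal-like cells, and 7 without it. Differences are of log2 fold changes, the upper layer minus the lower. Over all genes tested, 9.75% were called between spinous-like and basal-like cells and 19.5% between granular-like and basal-like cells. Between granular-like and spinous-like cells 2.95% were called. Between spinous-like and basal-like cells they were -3.10 for Elovl4 (adjusted p = 2.57e-06), -1.93 for Pnpla1 (0.00876), -1.83 for Abca12 (0.000589), -2.49 for Alox12b (0.00655) and -2.61 for Acer1 (3.23e-06). Between granular-like and basal-like cells they were -3.41 for Elovl4, -1.14 for Cers3, -2.82 for Pnpla1, -1.65 for Ugcg, -2.31 for Abca12, -4.77 for Alox12b, -1.13 for Aloxe3 and -2.57 for Acer1, with adjusted p-values from 1.92e-07 to 0.0360. Between granular-like and spinous-like cells they were -1.12 for Ugcg (adjusted p = 0.0270) and -2.28 for Alox12b (0.00972). Krtdap held 227 and 336 CPM in basal-like cells of Sham and 3152 to 3571 in those of treated skin, and the part of such cells in these differences was not tested. With 2 libraries per group no sample could be tested as standing apart from its group.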

How the results depend on the processing

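Single-gene values were fold changes and differences in the share of cells. In 1407, a fold change kept its direction and call or a share moved by less than its spread between libraries. Calls were lost in 86 and gained in 21. In 12, a fold change called in the main or the other setting turned in direction. The other 183 were fold changes that turned in direction with no call, or shares that moved by more. The cause was not tested. Genes and members (the 9 genes) called are given for IMQ against Sham (A), IMQ+SHP099 against IMQ (B) and IMQ+SHP099 against Sham (C), set beside main counts of 3340, 0 and 3468 genes in basal-like, 2271, 1 and 2243 in spinous-like and 1327, 0 and 1297 in granular-like cells.

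DESeq2 called 38 (basal-like) and 13 (spinous-like) genes in B. With no filter on low counts B gave 189, 117 and 68 genes from basal-like to granular-like, and 2 members were higher in spinous-like A. Replicate numbers do not pair the libraries (correlations of deviations from -0.03 to 0.22); the replicate block gave 15, 21 and 4 genes in B, and 2 (A) and 5 (C) members higher in spinous-like cells. Fitting only the 2 groups compared gave 0 genes in spinous-like B and 0 members lower in spinous-like and granular-like C. The stricter gate gave 2 (basal-like) and 0 (spinous-like) genes in B and 0 members lower in spinous-like C. The granular cut at 0.2% gave 781 (A) and 765 (C) genes and 1 (A) and 0 (C) members lower in granular-like cells, and 2 genes in spinous-like B. Leaving out the deepest 5% of cells gave 0 genes in spinous-like B. With library totals B gave 2 genes in spinous-like cells, 4 members were higher in basal-like A and 4 in C, and 3 lower in granular-like C.

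The gate with S100a8 gave 1924, 1251 and 583 genes in A, 2 (basal-like) and 0 (spinous-like) in B and 1388, 1166 and 588 in C. Members higher were 1 in basal-like and 0 in spinous-like cells of A and of C, and members lower in granular-like cells were 1 (A) and 0 (C), and 0 in spinous-like C. Cers3 in basal-like A turned to -0.075. Basal-like cells with few differentiation UMIs gave 1461, 5 and 1818 genes in A, B and C and 0 (A) and 1 (C) members higher. Log2 fold changes there turned to -0.52 (Elovl4), -0.23 (Cers3), -1.09 (Pnpla1) and -3.33 (Acer1) in A and to -0.80 (Elovl4) and -1.34 (Acer1) in C. Upper layers with few basal UMIs gave 1463 genes in spinous-like C, 2 members higher in spinous-like A, and 0 lower in granular-like A and C and spinous-like C. With no layer split there were 2929, 0 and 3062 genes and 1 member higher and 1 lower in A and in C, and against basal-like cells A turned for Elovl4 (-0.044), Abca12 (-0.027), Alox12b (-0.46) and Acer1 (-1.26), and C for Acer1 (-1.41).

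Leaving out 1 library gave 1315 to 3298, 1127 to 2721 and 600 to 1627 genes in A from basal-like to granular-like, 0 to 5, 0 to 18 and 0 to 8 in B, and 957 to 3404, 1302 to 2327 and 591 to 1341 in C. Members higher ranged from 5 to 7 (basal-like A), 0 to 2 (spinous-like A), 6 to 8 (basal-like C) and 2 to 4 (spinous-like C), and members lower from 0 to 1 in spinous-like A, 0 to 3 in granular-like A and 0 to 1 in spinous-like and granular-like C. No member was called in B. Granular-like sums of 40 to 83 cells limit the IMQ group.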
